A study of Mus musculus with 9 samples.

Results

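Semaphorins, ephrins, Slits, netrins and their receptors were read on 9 arrays of sorted mouse back skin cells from the second resting phase (telogen) of the hair cycle. The genes were chosen by name, as those whose symbol begins with Sema3 to Sema7, Plxna to Plxnd, Epha, Ephb, Efna, Efnb, Slit, Robo or Ntn and a number, or is Nrp1 or Nrp2. This gave 54 of the 12393 genes read by probe sets that name a single gene and are not controls. The 54 were 17 semaphorins, 9 plexins and neuropilins, 8 ephrins, 11 Eph receptors, 6 Slits and Robos, and 3 netrins. They were read by 92 probe sets, and 24 of the genes had several.

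All mice were virgin CD1 females that carried Lef1RFP and K14H2BGFP, so that cells with Lef1 reporter activity were red and keratin 14 cells had green nuclei. Dermal papilla cells, the mesenchymal signalling centre at the follicle base, were sorted from a collagenase suspension as red and not green, with CD45, CD117, integrin alpha 7 and, per the titles, CD34 all negative. Hair germ cells, the small epithelial cluster next to the papilla, came from a later trypsin step as green, not red, CD34 negative and high for P-cadherin. Bulge cells, which hold the follicle's stem cells, came from the same trypsin step as green, not red, CD34 positive and low for P-cadherin. Each population had 1 array on postnatal day 43, 1 on day 56 and 1 on day 69 (early, middle and late telogen), made after 2 rounds of RNA amplification. How many mice stood behind an array is not given in the sources used here. The 3 ages served as the replicates of a population. The fit took out what a day shared over the populations, so p-values rest on the spread left after population and day. That spread may be partly technical.

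Marker genes were read on the same arrays. Of 15 tested dermal papilla markers, 15 were higher in dermal papilla than in the epithelial populations (16.6% of all genes tested). Sox18, Prom1, Fgf7, Vcan, Rspo2, Lepr, Corin and Alpl exceeded the array median on dermal papilla arrays alone. They were tested only through those arrays, so their direction was largely fixed beforehand. Alx4, Fgf10 and Nog were on the array but not tested. Nog was brighter in bulge (32.8, 41.9 and 39.6) than in dermal papilla (1.98, 4.75 and 19.7). Keratinocyte markers were lower in dermal papilla in 11 of 11 cases (23.7% of all genes). Of 13 bulge markers, 10 were lower in hair germ than in bulge (7.56% of all genes). The bulge list holds Cd34, whose protein was itself a sort gate between these populations. Cd34 was above the median on bulge arrays alone, so its direction was fixed beforehand. The short hair germ list did not set hair germ apart from bulge: of its 7 markers 5 were tested, with Tnfrsf19 higher (4.33, adjusted p = 5.63e-05) and Lgr5, which also stands on the bulge list, lower in hair germ (-1.11, adjusted p = 0.0399). Cdh3, the P-cadherin gene of the sort gate, lay below the array median on every array. Dermal fibroblast markers were high on the dermal papilla arrays: of 9 tested 6 were higher there and 0 lower, and the summed signal of the 10 listed was 16028 to 20839 in dermal papilla, 704 to 1394 in hair germ and 450.01 to 1663 in bulge. Dpt and Col3a1 differed most in this list (6.62 and 5.60), while Mfap5 was below the median on every array. Their part in the guidance genes that were higher in dermal papilla was not tested. Median signals ran from 39.9 to 56.3. The ratio of 3' to 5' GAPDH control signal, which grows as amplified RNA gets shorter, was 6.62, 4.13 and 3.77 in dermal papilla on days 43, 56 and 69, 8.34, 2.97 and 7.90 in hair germ, and 4.46, 5.09 and 3.96 in bulge. The number of arrays limits the precision.

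Guidance genes were first known from growing axons, where secreted and membrane-bound ligands attract or repel the growth cone. Semaphorins act through plexins, often with a neuropilin as co-receptor. Ephrins on one cell meet Eph receptor kinases on its neighbour and both cells can be signalled to, a system known for keeping cell populations apart at boundaries. Slits are secreted proteins that bind Robo receptors, and the same families pattern the blood vessels and nerve fibres that supply skin.

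Levels are log2(signal + 16), and differences are in log2 units on that scale, which understates the change of dim genes. A probe set's level is set only against the same probe set on other arrays. A gene was tested if it had a probe set brighter than the array median on 3 or more of the 9 arrays. This held for 32 of the 54 guidance genes: 10 of 17 semaphorins, 7 of 9 plexins and neuropilins, 5 of 8 ephrins, 7 of 11 Eph receptors, 3 of 6 Slits and Robos, and 0 of 3 netrins. Of the 32, 8 were above the median in a single population, so their passing came from that population: Epha7, Plxnd1 and Slit2 in dermal papilla, Plxnc1 and Sema3f in hair germ, and Efna4, Ephb4 and Sema3e in bulge. In these bulk samples, fewer expressing cells and less RNA per cell cannot be told apart.

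The promoters of 4 genes are printed because their genes carry the largest population differences among the 32 tested guidance genes, or pair as ligand and receptor. Within these 32, Slit2 had the largest difference between dermal papilla and epithelium, Sema3e and Robo1 had the largest differences between hair germ and bulge, and Plxnd1 encodes the receptor that Sema3e protein binds. Each line runs 5′ to 3′ on the gene's own strand from 250 bases before the start site to 50 after it (RefSeq, GRCm38.p6). Capitals mark the letters of 3 motifs searched on both strands: the TATA box TATAAA, the GC box GGGCGG and the TCF/LEF core CTTTGA.
Slit2, chr5:47982905-47983204, plus strand: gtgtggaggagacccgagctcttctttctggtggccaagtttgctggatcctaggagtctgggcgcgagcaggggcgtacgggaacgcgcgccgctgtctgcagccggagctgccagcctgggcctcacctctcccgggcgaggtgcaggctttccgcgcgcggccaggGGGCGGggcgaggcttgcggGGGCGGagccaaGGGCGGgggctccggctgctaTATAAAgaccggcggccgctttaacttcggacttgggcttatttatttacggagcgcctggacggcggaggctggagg
Robo1, chr16:72662899-72663198, plus strand: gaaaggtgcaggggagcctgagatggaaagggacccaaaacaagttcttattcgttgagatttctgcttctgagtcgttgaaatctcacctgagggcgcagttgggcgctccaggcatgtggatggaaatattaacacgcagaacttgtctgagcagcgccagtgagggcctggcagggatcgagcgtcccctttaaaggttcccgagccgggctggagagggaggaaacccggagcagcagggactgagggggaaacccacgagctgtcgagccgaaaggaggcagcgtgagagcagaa
Sema3e, chr5:14025026-14025325, plus strand: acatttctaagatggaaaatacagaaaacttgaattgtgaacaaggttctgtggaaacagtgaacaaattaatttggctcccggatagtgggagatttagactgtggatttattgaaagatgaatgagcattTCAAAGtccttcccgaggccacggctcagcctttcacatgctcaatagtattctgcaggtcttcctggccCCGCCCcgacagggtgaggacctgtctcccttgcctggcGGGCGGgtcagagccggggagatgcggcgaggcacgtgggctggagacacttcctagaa
Plxnd1, chr6:115994956-115995255, minus strand: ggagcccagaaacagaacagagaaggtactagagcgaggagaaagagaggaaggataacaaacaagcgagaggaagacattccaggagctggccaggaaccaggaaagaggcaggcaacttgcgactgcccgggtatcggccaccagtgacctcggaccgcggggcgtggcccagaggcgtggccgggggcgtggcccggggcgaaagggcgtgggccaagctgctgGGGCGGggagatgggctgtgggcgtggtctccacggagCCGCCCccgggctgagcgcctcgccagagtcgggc

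The Slit2 window held a TATA box at -28 to -23 from the start site (counted as 0) and 3 GC boxes at -81, -61 and -49, with 30 CpG pairs and a GC content of 68.0%. The Robo1 window held none of the 3 motifs, with 15 CpG pairs and 57.0% GC. The Sema3e window had 2 GC boxes and a TCF/LEF core on the reverse strand at -118 to -113, with 11 CpG pairs and 50.7% GC. The Plxnd1 window had 2 GC boxes, 23 CpG pairs and 67.0% GC. Among 32851 RefSeq promoter windows of the same length, 13.6% held the TATA letters, 35.7% the GC box and 16.003% the TCF/LEF core, and the median window had 7 CpG pairs and 52.7% GC. These matches describe the letters of the windows and are not evidence of binding.

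Against the mean of hair germ and bulge, dermal papilla differed for 24 of the 32 tested guidance genes in limma's test at an adjusted p below 0.05, 8 of them higher and 16 lower. Over all 7796 genes tested the share called was 40.3%, with 16.6% higher and 23.7% lower in dermal papilla, while 75.0% of the guidance genes were called. Their median difference was -0.55, against -0.10 for all genes tested, and the median size of the difference was 1.44, against 0.46. All 24 had the same sign on each of the 3 days, 19 had no overlap between the dermal papilla and epithelial arrays, and 21 differed at least 2-fold. These 3 counts were taken among genes already called on the same arrays, which favours them. They were not set against all genes tested. Without the filter on dim probe sets, 24 of all 54 guidance genes were called (44.4%), against 26.1% of 12393 genes. By role, the calls were 2 higher and 6 lower of 10 semaphorins, 2 higher and 3 lower of 7 plexins and neuropilins, 0 higher and 3 lower of 5 ephrins, 1 higher and 4 lower of 7 Eph receptors, and 3 higher and 0 lower of 3 Slits and Robos.

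Between hair germ and bulge, 14 of the 32 differed, 8 higher and 6 lower in hair germ. The share called over all genes was 19.8%, with 12.2% higher and 7.56% lower, and 43.8% for the guidance genes. All 14 kept one sign over the 3 days, 12 had no overlap between hair germ and bulge arrays, and 11 differed at least 2-fold. Here too the counts are among genes already called on these arrays, and were not set against all genes tested. The split depended on how arrays were scaled: the median difference of all genes was 0.10 as deposited, -0.05 after quantile normalization and -0.11 after median centring, and the calls were then 5 higher and 8 lower, and 6 higher and 9 lower. The 12.2% and 7.56% hold for the values as deposited, and the shares of all genes under the other scalings are not given here. Without the filter 10 of 54 were called (18.5%, 5 in each direction), against 11.4% of all genes. The count of 14 fell to 7 without the day 43 hair germ array, to 9 without the day 69 hair germ array, and to 7, 7 and 9 without the bulge array of day 43, 56 or 69, partly because genes above the median on few arrays then missed the filter. Leaving out the day 56 hair germ array ended the calls of Epha2, Nrp2, Plxnb2 and Sema5a.

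**Figure D1:**
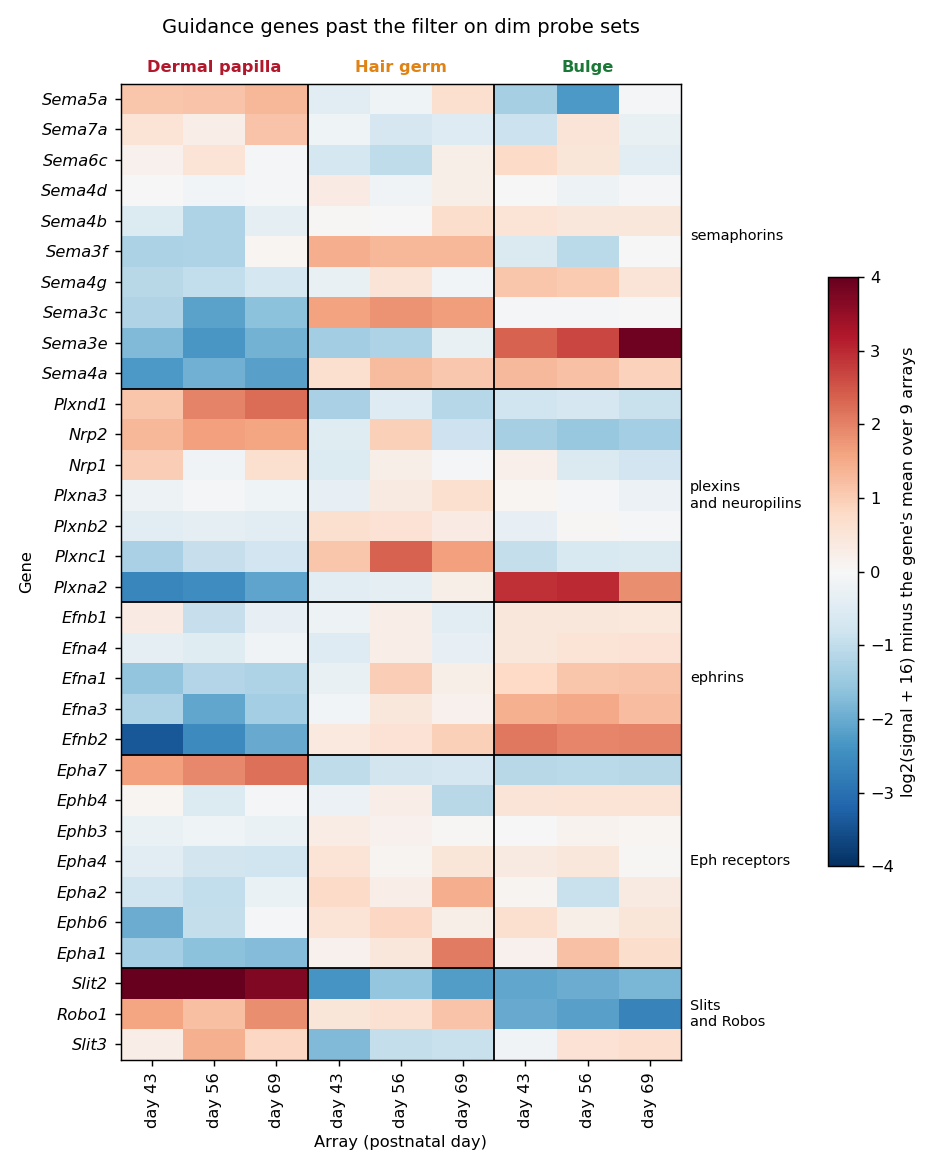
Level of each of the 32 tested guidance genes on each of the 9 arrays, as log2(signal + 16) minus the gene's own mean over the 9 arrays (red above, blue below; the scale ends at -4 and 4). Columns are dermal papilla, hair germ and bulge arrays by postnatal day, and rows are grouped by role and ordered by the difference between dermal papilla and the epithelial populations. Slit2 stands out in dermal papilla, and Sema3e, Plxna2 and Efnb2 in bulge.

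Slit2, a secreted repellent that binds Robo receptors, was 10.58, 10.81 and 10.23 in dermal papilla on days 43, 56 and 69, against 4.16, 4.98 and 4.28 in hair germ and 4.44, 4.54 and 4.71 in bulge. Every dermal papilla array was far above every epithelial array, and all 6 epithelial values were below their array medians. The difference between dermal papilla and epithelium was 6.02 (SE 0.23, limma adjusted p = 1.56e-08), or 65.05-fold on this scale. Because the epithelial side is dim, its size follows the pseudocount and lay between 3.92 and 7.70 over the alternatives. A second Slit2 probe set, dimmer in dermal papilla, gave 1.82. The difference between hair germ and bulge, -0.09, was not called (adjusted p = 0.857).

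Slit3, a second ligand of the family, was 7.54, 8.69 and 8.11 in dermal papilla, against 5.52, 6.33 and 6.39 in hair germ and 7.14, 7.87 and 7.94 in bulge. Its low population was hair germ, and the dermal papilla and bulge arrays overlapped. Dermal papilla exceeded hair germ by 2.03 (adjusted p = 3.29e-05) and the epithelial mean by 1.25 (adjusted p = 0.000362), but its difference from bulge, 0.47, was not called (adjusted p = 0.136). Hair germ was below bulge by a difference of -1.57 (SE 0.22, adjusted p = 0.00082), on each of the 3 days.

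Robo1, a receptor for Slits, was 8.67, 8.28 and 8.96 in dermal papilla, against 7.59, 7.69 and 8.24 in hair germ and 5.07, 4.91 and 4.42 in bulge. The populations ranked dermal papilla, hair germ, bulge on every day, and all bulge values were below their array medians. Hair germ exceeded bulge by 3.04 (SE 0.29, adjusted p = 7.2e-05), or 8.22-fold, and dermal papilla exceeded bulge by 3.84 (adjusted p = 1.63e-06). Over the alternatives the first of these differences lay between 1.87 and 4.13. The step of 0.80 between dermal papilla and hair germ was small (adjusted p = 0.0461), and its call was lost in 10 of the 19 alternatives. Among these were no filter on dim probe sets (adjusted p = 0.0729), a pseudocount of 1 (0.148), and leaving out the dermal papilla array of day 43 (0.115), 56 (0.0651) or 69 (0.1895), the hair germ array of day 43 (0.185) or 56 (0.112), or the bulge array of day 43 (0.0545) or 56 (0.0525). Robo3, Robo4 and Slit1 did not pass the filter and were below the median on every array.

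**Figure D2:**
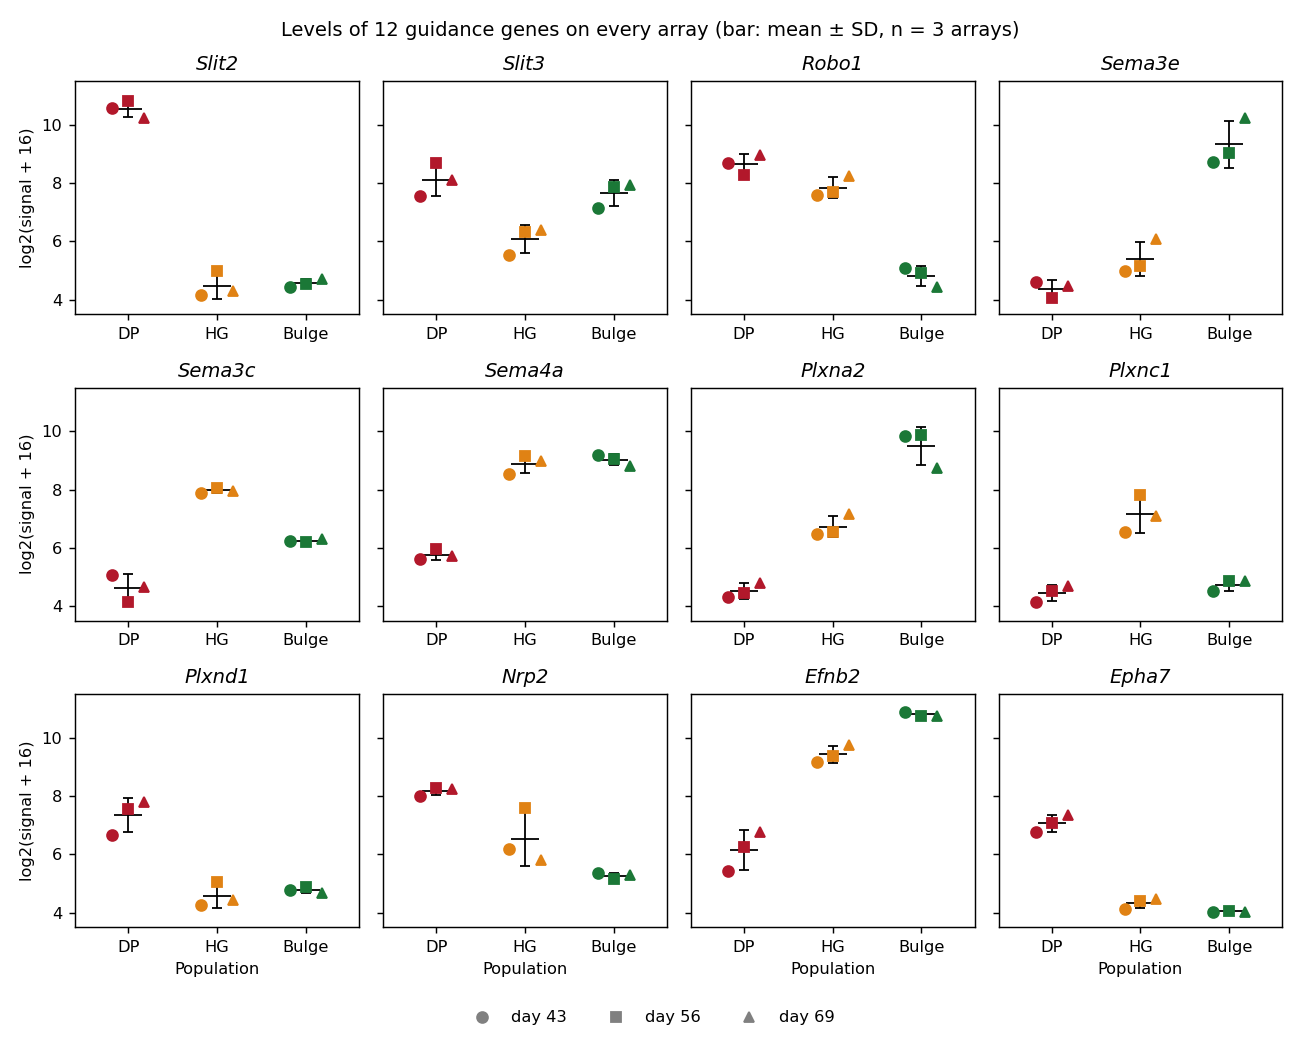
Levels (log2(signal + 16)) of 12 guidance genes on every array, in dermal papilla (DP), hair germ (HG) and bulge, with circles for day 43, squares for day 56 and triangles for day 69. Black bars give the mean ± SD over 3 arrays. Slit2, Plxnd1 and Epha7 are high in dermal papilla alone, Plxnc1 in hair germ alone and Sema3e in bulge alone, while Efnb2 steps between all 3 populations and Robo1 is low in bulge.

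The semaphorins divided over all 3 populations. Sema3e, a secreted semaphorin that binds plexin D1 without a neuropilin, was 4.61, 4.04 and 4.46 in dermal papilla, against 4.97, 5.14 and 6.07 in hair germ and 8.72, 9.03 and 10.25 in bulge. It was above the array median on the bulge arrays alone. Hair germ was below bulge by a difference of -3.94 (SE 0.32, adjusted p = 3.27e-05), a 15.33-fold difference and the largest between the epithelial populations among the 32, and a second kept probe set gave -2.74. Dermal papilla was below the epithelial mean (-2.99, adjusted p = 6.47e-06) and below hair germ (-1.02, adjusted p = 0.0252). The last call was lost in 8 of the 16 alternatives in which Sema3e passed the filter, among them leaving out the dermal papilla array of day 56 (adjusted p = 0.0871) or 69 (0.141) or the hair germ array of day 56 (0.0716) or 69 (0.0732). With a pseudocount of 64 the difference was -0.41 (0.216), and with the mean of kept probe sets -0.47 (0.325).

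Sema3c, a secreted semaphorin that signals through neuropilins, was 5.07, 4.14 and 4.65 in dermal papilla, against 7.90, 8.07 and 7.94 in hair germ and 6.23, 6.21 and 6.29 in bulge. The hair germ arrays were the highest and the dermal papilla arrays the lowest, with no overlap. Hair germ exceeded bulge by 1.73 (SE 0.27, adjusted p = 0.00154), and dermal papilla was below hair germ by a difference of -3.35 (adjusted p = 3.67e-06).

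Sema3f, a ligand of neuropilin 2, was 4.13, 4.16 and 5.50 in dermal papilla, against 6.88, 6.73 and 6.73 in hair germ and 4.82, 4.33 and 5.42 in bulge. Only the hair germ arrays lay above their medians. Hair germ exceeded bulge by 1.92 (SE 0.34, adjusted p = 0.00302). The lower level of dermal papilla than of the epithelial mean (-1.22, adjusted p = 0.00685) came with overlapping arrays, was not called without the day 43 (adjusted p = 0.0648) or day 56 (adjusted p = 0.0546) dermal papilla array, and against bulge alone the difference was -0.26 (adjusted p = 0.606).

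Sema4a, a membrane semaphorin, was 5.60, 5.97 and 5.73 in dermal papilla, against 8.54, 9.16 and 8.96 in hair germ and 9.20, 9.06 and 8.81 in bulge. Both epithelial populations were high and overlapped. Dermal papilla was lower than the epithelial mean by a difference of -3.19 (SE 0.19, adjusted p = 3.1e-07), and the difference of -0.14 between hair germ and bulge was not called (adjusted p = 0.719).

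The membrane semaphorins Sema4g (-1.40) and Sema4b (-1.09) were also lower in dermal papilla, with adjusted p = 0.000695 and 0.00187. In hair germ, Sema4g was below its bulge level (-0.87, adjusted p = 0.0488). That call was lost in 10 of the 19 alternatives, among them leaving out the dermal papilla array of day 43 (adjusted p = 0.0509) or 56 (0.0557), the hair germ array of day 43 (0.17) or 69 (0.11), or the bulge array of day 43 (0.271), 56 (0.134) or 69 (0.0634).

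Sema5a, a transmembrane semaphorin, was higher in dermal papilla than in epithelium by 1.81 (adjusted p = 0.000577), and hair germ exceeded bulge by 1.24 (adjusted p = 0.0294) with overlapping arrays. The second call ended without the hair germ array of day 56 (adjusted p = 0.117) or 69 (0.0679), or without the bulge array of day 43 (0.09) or 56 (0.144). Sema7a, which is held to the membrane by a lipid anchor, was higher in dermal papilla by 0.98 (adjusted p = 0.0363). That call ended in 9 of the 19 alternatives, among them leaving out the dermal papilla array of day 43 (adjusted p = 0.125) or 69 (0.232), the hair germ array of day 56 (0.0767) or 69 (0.0592), or the bulge array of day 43 (0.0926) or 69 (0.0821). The differences of Sema4d and Sema6c did not pass (-0.07 and 0.34). The 7 semaphorins below the filter were Sema3a, Sema3b, Sema4f, Sema5b, Sema6a, Sema6b and Sema6d.

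Among the receptors of semaphorins, Plxna2 had the same population order as Sema3e, with bulge highest and dermal papilla lowest. Plxna2, a plexin known as a receptor of transmembrane semaphorins, was 4.30, 4.44 and 4.81 in dermal papilla, against 6.49, 6.55 and 7.16 in hair germ and 9.83, 9.89 and 8.76 in bulge. The 3 populations did not overlap. Dermal papilla was below the epithelial mean by a difference of -3.60 (SE 0.30, adjusted p = 3.33e-06), and hair germ was below bulge by -2.76 (SE 0.35, adjusted p = 0.000374).

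Plxnc1, a plexin known as the receptor of Sema7a, was 4.16, 4.53 and 4.68 in dermal papilla, against 6.55, 7.81 and 7.08 in hair germ and 4.50, 4.84 and 4.87 in bulge. Every hair germ array was above its median and every other array below. Hair germ exceeded bulge by 2.41 (SE 0.30, adjusted p = 0.000348), with a range of 1.36 to 3.46 over the alternatives. The difference between dermal papilla and bulge, -0.28, was not called (adjusted p = 0.508). Markers of pigment cells followed Plxnc1 only in part. The summed signal of 8 melanocyte markers was 432 to 753 in dermal papilla. On days 43, 56 and 69 it was 2703, 5089 and 2312 in hair germ, against 2644, 3028 and 2322 in bulge. Most of the bulge sum was Mitf. Dct was 1369, 2519 and 1060 in hair germ against 45.8 to 70.5 in bulge. Tyrp1 was 320, 882 and 263 against 8.37 to 26.2, and Pmel 447, 806 and 265 against 30.9 to 47.3. Of the 4 that were tested, 3 were higher and 1 lower in hair germ than in bulge. The lower one was Mitf, at 423, 678 and 522 in hair germ against 2445, 2864 and 2115 in bulge. Among the hair germ arrays, that of day 56 was highest for Plxnc1 and for Dct, Tyrp1, Pmel and Mitf. The part of pigment cells in the Plxnc1 result was not tested.

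Plxnd1 was 6.68, 7.55 and 7.81 in dermal papilla, against 4.26, 5.06 and 4.43 in hair germ and 4.76, 4.88 and 4.67 in bulge. All dermal papilla arrays lay above all others. The difference was 2.67 (SE 0.27, adjusted p = 1.51e-05), and that between hair germ and bulge, -0.19, was not called (adjusted p = 0.72). Plexin D1 is best known from endothelium. The summed signal of 13 endothelial markers was 298 to 579 in dermal papilla, 118 to 362 in hair germ and 126 to 158 in bulge. Pecam1, Cdh5, Tek, Tie1, Kdr, Flt1, Emcn and Sox17 were below the array median on all 9 arrays (Pecam1 signals of 2.80, 3.43 and 10.4 in dermal papilla). Eng was above it on the 3 dermal papilla arrays, Esam on 2 of them (and on 1 hair germ array), and Vwf, Cldn5 and Egfl7 on 1 each. Vwf signals were 26.4, 63.3 and 36.7 in dermal papilla and 0.40 to 1.77 on the epithelial arrays. The part of endothelial cells in the Plxnd1 result was not tested.

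Nrp2, the co-receptor of Sema3f and Sema3c, was 8.003, 8.29 and 8.25 in dermal papilla, against 6.19, 7.60 and 5.82 in hair germ and 5.35, 5.15 and 5.30 in bulge. Dermal papilla was highest on every day. The difference from epithelium was 2.28 (SE 0.31, adjusted p = 0.00013). Hair germ exceeded bulge by 1.27 (adjusted p = 0.03), with the day 56 hair germ array well above the other 2. Without that array the difference was 0.74 (adjusted p = 0.125), and the call also ended without the day 43 hair germ array (adjusted p = 0.0524) or without the bulge array of day 43 (0.0676), 56 (0.155) or 69 (0.0582). On that day the summed signal of dermal papilla markers in hair germ was 1426, against 723 and 727 on days 43 and 69, and its part in the Nrp2 value was not tested.

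Plxnb2, a receptor of class 4 semaphorins, was lower in dermal papilla than in epithelium (-0.60, adjusted p = 0.0157), and the call ended without the dermal papilla array of day 43 (adjusted p = 0.055) or 56 (0.0922). Its difference between hair germ and bulge (0.63, adjusted p = 0.048) was lost in 15 of the 19 alternatives, including every one that left out an array, with an adjusted p of up to 0.262. Between dermal papilla and epithelium, Nrp1 (0.75, adjusted p = 0.0905) and Plxna3 (-0.24, adjusted p = 0.445) did not pass. Plxna1 and Plxnb3 did not pass the filter.

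**Figure D3:**
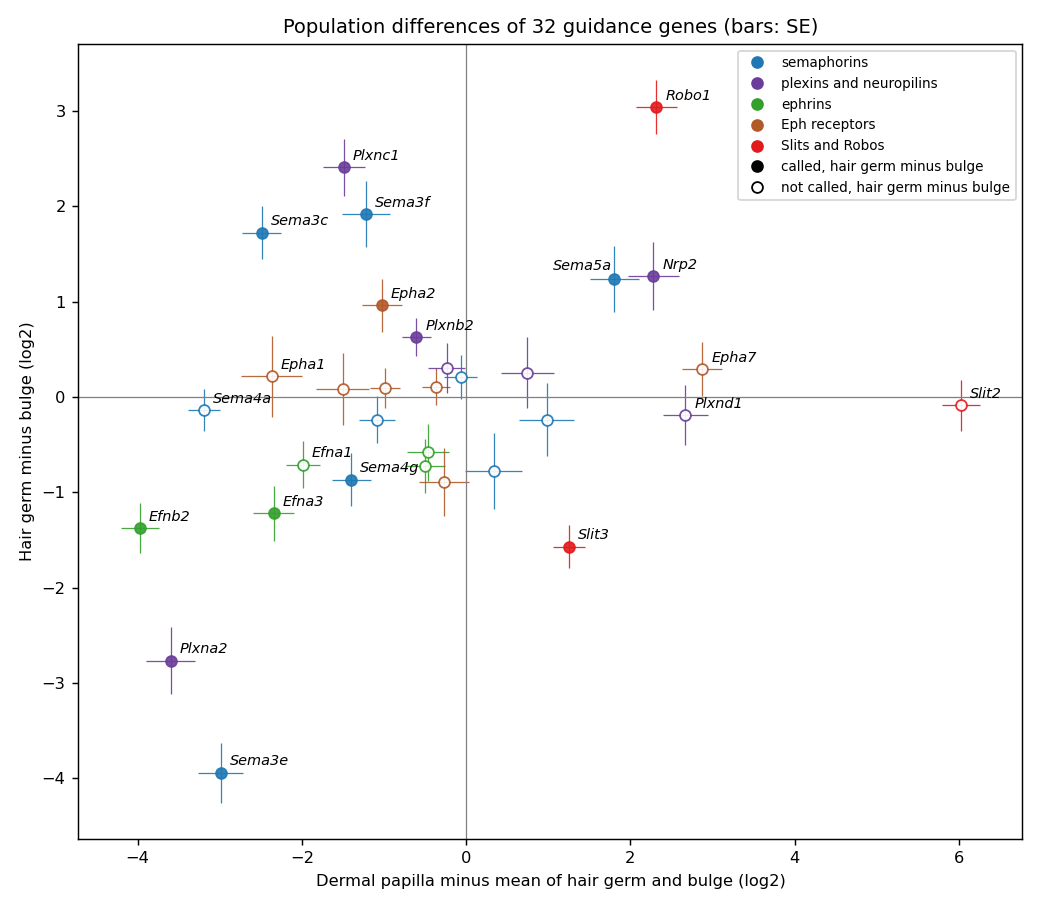
Difference between dermal papilla and the mean of hair germ and bulge (horizontal, log2) against the difference between hair germ and bulge (vertical, log2) for the 32 tested guidance genes, coloured by role, with bars of 1 SE. Filled points were called between hair germ and bulge. Slit2 lies far right at 6.02 and -0.09, Robo1 at 2.32 and 3.04, and Sema3e at -2.99 and -3.94. Both axes use the hair germ and bulge arrays.

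Of the 5 ephrins tested, 3 were lower in dermal papilla than in epithelium and 0 higher. Efnb2, a transmembrane ephrin and marker of arteries, was 5.41, 6.24 and 6.78 in dermal papilla, against 9.18, 9.37 and 9.74 in hair germ and 10.89, 10.76 and 10.76 in bulge. Dermal papilla was lowest and bulge highest on every day. Dermal papilla was below the epithelial mean by a difference of -3.97 (SE 0.23, adjusted p = 2.01e-07), a 15.68-fold difference, and hair germ below bulge by -1.37 (SE 0.26, adjusted p = 0.00455). A second probe set gave -3.27 and -1.09.

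Efna3 and Efna1, ephrins with a lipid anchor, were lower in dermal papilla by differences of -2.34 (adjusted p = 2.22e-05) and -1.99 (adjusted p = 2.11e-05). Efna3 was also lower in hair germ than in bulge (-1.22, adjusted p = 0.0142), a call that ended without the day 43 hair germ array (adjusted p = 0.0692) or the day 43 (0.0766) or day 56 (0.0796) bulge array. Efna1 did not pass there (-0.71, adjusted p = 0.0661). Efna4 and Efnb1 had differences of -0.50 and -0.47 between dermal papilla and epithelium that did not pass, although Efna4 was lower in dermal papilla than in bulge alone (-0.86, adjusted p = 0.0357). That call was lost in 6 of the 16 alternatives in which Efna4 passed the filter, among them no filter on dim probe sets (adjusted p = 0.0610), a pseudocount of 1 (0.0524), and leaving out the dermal papilla array of day 43 (0.0798), 56 (0.195) or 69 (0.0573). Between hair germ and bulge, 2 of the 5 ephrins were called, both lower in hair germ, and after either quantile normalization or median centring 4 of the 5 were, with Efna1 (adjusted p = 0.0387 and 0.0175) and Efna4 (0.0366 and 0.0351) added. The shares of all genes called under these other scalings are not given here. Efna2, Efna5 and Efnb3 did not pass the filter.

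Of the 7 Eph receptors tested, the kinases that ephrins bind, 4 were lower in dermal papilla, 1 was higher and 2 were not called. Epha7 was 6.78, 7.06 and 7.35 in dermal papilla, against 4.14, 4.40 and 4.48 in hair germ and 4.04, 4.06 and 4.03 in bulge. The dermal papilla arrays stood apart from all the rest. The difference was 2.88 (SE 0.25, adjusted p = 3.88e-06), and over the alternatives it lay between 1.46 and 5.47, since the epithelial side was dim.

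Epha3 did not pass the filter, with 5.20, 5.93 and 6.39 in dermal papilla, against 4.03, 4.03 and 4.09 in hair germ and 4.06, 4.02 and 4.28 in bulge. It lay above the median on 2 dermal papilla arrays. In the fit without a filter it was higher in dermal papilla by 1.76 (adjusted p = 0.000112).

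Lower in dermal papilla were Epha1 (-2.37, adjusted p = 0.000365), the kinase-inactive Ephb6 (-1.50, adjusted p = 0.0033), Epha2 (-1.02, adjusted p = 0.00579) and Epha4 (-0.99, adjusted p = 0.00126). Against bulge alone, Epha2 was not called. Epha1 had other probe sets that missed the filter. One, below the median on every array, went the other way (0.84), and one above it on 1 array gave -0.78. Ephb3 (-0.36, adjusted p = 0.114) and Ephb4 (-0.27, adjusted p = 0.522) did not pass. Between hair germ and bulge, 1 of 7 receptors was called: Epha2 was higher in hair germ by 0.96 (adjusted p = 0.0349) with overlapping arrays. That call ended without the day 56 hair germ array (adjusted p = 0.0852) or without the day 43 (0.0759) or day 56 (0.164) bulge array, and under both other scalings (0.0784 and 0.0803). After quantile normalization 0 of the 7 were called, and after median centring 1 other receptor was called, lower in hair germ. Epha5, Epha6 and Epha8 were below the median on every array.

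The 3 netrins, secreted guidance proteins related to laminins, did not pass the filter. Ntn1, Ntn3 and Ntn4 were below the median on all 9 arrays, with population means between 4.12 and 5.34.

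In the separate contrasts, dermal papilla differed from hair germ for 24 guidance genes (8 higher, 16 lower) and from bulge for 19 (6 higher, 13 lower). The share called over all genes was 39.3% against hair germ and 35.1% against bulge. These contrasts share the dermal papilla arrays. Plxnc1 was lower in dermal papilla than in hair germ (-2.69, adjusted p = 3.4e-05), as was Sema3f (-2.18, adjusted p = 0.000446), whereas neither was called against bulge. Epha2, Plxnb2, Sema7a and Slit3 were likewise called against hair germ and not against bulge. Sema7a lost the call against hair germ in 8 of the 19 alternatives.

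Over time, 0 of the 32 guidance genes passed limma's test across all populations, and the share of all genes called was 0.0% on day 69 and 0.0% on day 56, each relative to day 43. At an unadjusted p below 0.05, 4 of 32 guidance genes and 565 of 7796 genes differed between days 69 and 43, and 2 of 32 and 398 of 7796 between days 56 and 43. The first 4 were Slit3 (a difference of 0.75), Sema3e (0.82), Sema5a (0.86) and Efnb2 (0.60), all with higher values on day 69 and with limma adjusted p-values of 0.679 to 0.682.

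Within a population, days 69 and 43 are 1 array each, so the following differences have no replicate check. A gene was counted when the arrays were at least 2-fold apart and the higher one lay above its own median. In dermal papilla 3 guidance genes were higher on day 69 and 0 lower, where 5.82% of all genes were higher and 2.39% lower. In hair germ 2 were higher and 0 lower, where 7.67% and 4.67% of all genes were. In bulge 2 were higher and 2 lower, where 1.48% and 1.12% of all genes were. With a pseudocount of 64 the count was 1 in each population.

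In dermal papilla, Ephb6 was 6.71, 7.74 and 8.62 on days 43, 56 and 69, a difference of 1.90 between the last and the first day. Efnb2 (1.37) and Plxnd1 (1.13) also had their highest dermal papilla value on day 69 and their lowest on day 43. A second kept Efnb2 probe set changed far less on the dermal papilla arrays, at 5.57, 5.58 and 5.83. The GAPDH 3' to 5' ratio of these arrays was highest on day 43 and lowest on day 69, and its part was not tested.

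In hair germ, Epha1 was 5.96, 6.26 and 7.86, a difference of 1.90, and Sema5a was 6.85, 7.10 and 7.91, a difference of 1.06. In bulge, Sema3e was 1.52 higher on day 69, where its array stood above the other 2. Its other probe sets, at 6.12, 6.30 and 8.18 and at 5.56, 5.56 and 6.90, were also highest on day 69.

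Sema5a in bulge was 5.95, 4.96 and 7.23, lowest on the middle day. Sema6c in bulge was 7.31, 7.01 and 6.10, a difference of -1.21, and Plxna2 was 1.08 lower on day 69 (a difference of -1.08). The other Sema6c probe sets, below the median on every array, went the other way in bulge. They were at 4.51, 5.23 and 5.32 and at 4.24, 4.87 and 5.09. Sema5a was counted in hair germ and bulge, and Plxna2 had values of 0.67 in hair germ and 0.51 in dermal papilla for the same days. A dimmer Sema5a probe set, which missed the filter, changed less. It was 4.79, 4.97 and 4.88 in hair germ and 4.42, 4.67 and 4.78 in bulge.

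**Figure D4:**
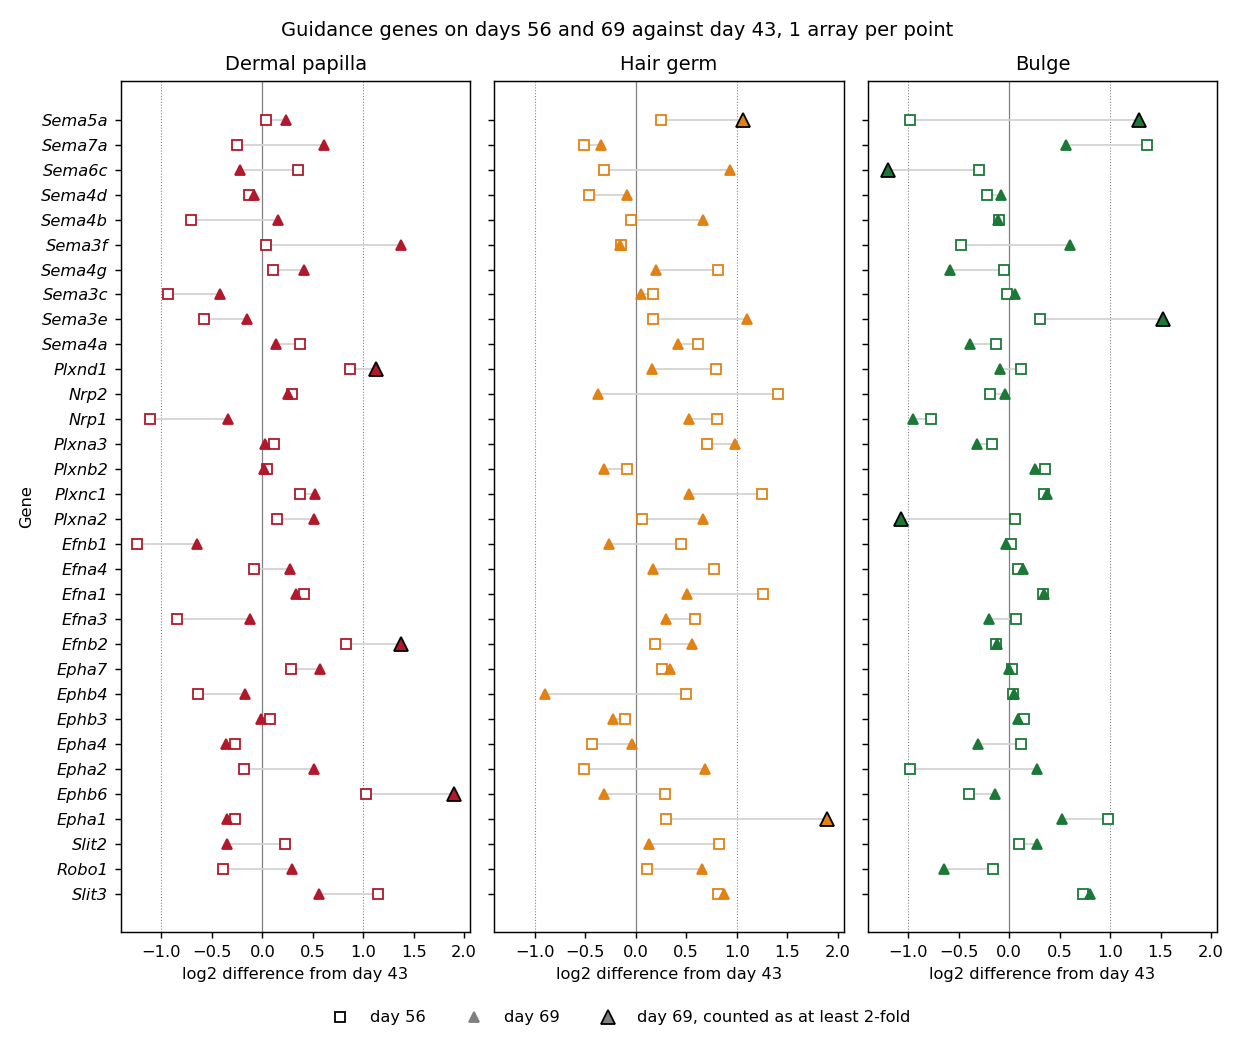
Difference of days 56 (open squares) and 69 (triangles) from day 43, in log2 units, for the 32 tested guidance genes in dermal papilla, hair germ and bulge, with 1 array per point. Large outlined triangles mark the genes counted as at least 2-fold apart, and dotted lines stand at -1 and 1. Most genes lie between the dotted lines.

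Other genes of these pathways, from lists of ligands, receptors and downstream proteins, split in both directions as well. Of 24 listed further guidance ligands and receptors 10 were tested, of which 5 were higher and 4 lower in dermal papilla than in epithelium, and 3 were higher and 1 lower in hair germ than in bulge. These are 9 and 4 of the 10, where the shares of all genes tested were 40.3% and 19.8%, which also stand beside the lists that follow. Ntng1, a membrane-bound netrin relative, was higher in dermal papilla by 2.69 (adjusted p = 8.47e-06), as was Unc5c, a netrin receptor, by 2.18 (adjusted p = 9.62e-05). The adhesion molecules Chl1 (-2.70, adjusted p = 4.12e-06) and L1cam (-2.54, adjusted p = 3.17e-06) were lower in dermal papilla. In hair germ against bulge, Chl1 was higher by 3.80 (adjusted p = 1.93e-05) and Vegfa, a ligand of neuropilins, by 1.91 (adjusted p = 0.00122), while Nrcam was lower (-2.23, adjusted p = 0.00782).

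Of 28 listed plexin and neuropilin effectors 18 were tested, of which 7 were higher and 5 lower in dermal papilla (66.7%). Dpysl3 (2.23, adjusted p = 7.19e-05) and Dpysl4 (1.77, adjusted p = 0.000451), cytoskeletal proteins downstream of semaphorins, and the kinase Fes (1.93, adjusted p = 0.000137) were higher, and Plxdc2 was lower (-1.36, adjusted p = 0.000363). Between hair germ and bulge 3 of the 18 were called (16.7%, below the share of all genes): 1 was higher, Mical1 (1.20, adjusted p = 0.0135), and 2 were lower, Farp1 (-1.72, adjusted p = 0.0132) and Arhgef12 (-0.90, adjusted p = 0.0177).

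Of 23 listed Eph effectors 18 were tested, of which 4 were higher and 7 lower in dermal papilla (61.1%). The Rac activator Tiam1 was lower by a difference of -4.04 (adjusted p = 3.14e-08) and the adaptor Grb10 higher by 3.86 (adjusted p = 7.17e-07), with Grb7 (-2.57) and Ngef (-1.59) also lower. Between hair germ and bulge 2 were higher and 4 lower (33.3%), with Vav3 at 2.05 (adjusted p = 0.00388) and Ngef at -1.96 (adjusted p = 0.0086). Of 19 listed Slit, Robo and netrin effectors 15 were tested, of which 2 were higher and 3 lower in dermal papilla. This is 33.3% of the list, below the 40.3% of all genes. Among them were Srgap3, of a family of GTPase-activating proteins that bind Robo1 (1.39, adjusted p = 0.000472), Evl (1.48, adjusted p = 0.00167) and Ablim1 (-2.66, adjusted p = 2.39e-05). In hair germ against bulge, limma called 0 of these 15, of which 2 had an unadjusted p below 0.05.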

How the data were processed

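Per the labels, RNA of sorted cells was amplified over 2 rounds and hybridised as biotinylated cRNA. Per the submitters' processing notes, the authors used GCOS and MAS5 (versions and scaling target not given in the sources used here). The deposited values are linear probe set intensity values, already scaled by the authors.

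From these, log2(signal + 16) was computed with no further scaling. Of 22690 probe sets, 64 were controls, 20393 were annotated to a single gene and 691 to several, which were not used. Probe sets above their own array's median in at least 3 arrays were kept (12801), and a gene was its brightest kept probe set on average (7796 genes). limma 3.58.1 in R 4.3.3 fitted population and day to all 9 arrays (4 residual degrees of freedom, eBayes with trend), with two-sided p-values adjusted by Benjamini-Hochberg over 7796 genes and called below 0.05. The fit was also run on simulated arrays with independent noise and no day effect, a simpler setting than these arrays. Whether arrays of a day shared mice is not stated. Across genes, same-day arrays of different populations had deviations from their group means that correlated at -0.097 to 0.184, and arrays of different days at -0.261 to 0.243.

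Values per array are given for the 8 largest called differences of each main contrast and for up to 4 genes per population that differed at least 2-fold between days 69 and 43. Up to 4 called genes of each other pathway list are named by size. Some per-array values were added for genes outside this rule (Nrp2, Epha3) after they were seen. The genes and lists were chosen with earlier results of these data known. Alternatives were pseudocounts of 1 and 64, 2 other filters, 2 other scalings, averaged probe sets, no day term, no trend, and arrays left out.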

Additional observations from a re-analysis of the deposited data

How the results depend on the processing

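Over 19 alternatives, 0 of the called guidance genes changed sign in the main contrasts. Of the 24 called between dermal papilla and epithelium, 15 were tested and called in all 19, 3 lost the call in some (Plxnb2, Sema3f and Sema7a), and 7 missed the filter in some. Of the 14 called between hair germ and bulge, these numbers were 5, 6 (Efna3, Epha2, Nrp2, Plxnb2, Sema4g and Sema5a) and 4. Leaving out 1 array at a time, which removes genes above the median on few arrays, gave 19 to 23 calls for dermal papilla against epithelium, 16 to 22 against hair germ, 15 to 20 against bulge, and 7 to 13 for hair germ against bulge. With 2 arrays left out together (dermal papilla of day 43, hair germ of day 69), 12 genes were called between dermal papilla and hair germ and 8 between hair germ and bulge. The day contrasts had 0 calls in limma under all alternatives. The counts of genes at least 2-fold apart between days 69 and 43 became 1 in dermal papilla, 1 in hair germ and 1 in bulge with a pseudocount of 64, 5 in hair germ with a pseudocount of 1, and 1 in hair germ after quantile normalization or median centring. The day was the block of every comparison between populations. With no day term (no replicate block), 24 genes were called between dermal papilla and epithelium, 22 between dermal papilla and hair germ, 19 between dermal papilla and bulge, and 12 between hair germ and bulge, and Epha2 (adjusted p = 0.11) and Sema5a (0.0774) lost their calls between hair germ and bulge, as did Sema3e (0.0616) and Sema5a (0.0568) between dermal papilla and hair germ.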
